A study of Homo sapiens with 18 samples.

Results

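MALAT1, NEAT1, PVT1, HOTAIR, KCNQ1OT1, MEG3, H19, GAS5 and SNHG1 are long noncoding RNAs that are either abundant in cancer cells or linked to the Polycomb system. These 9 genes were found by symbol among the 62703 Ensembl genes of the deposited tables, and they are described here in poly(A)-selected RNA-seq of breast cancer cells after loss of EZH2, loss of E2F1 or inhibition of EZH2. In these cells 5 of the 9 were well expressed, KCNQ1OT1 and H19 were low, and HOTAIR and MEG3 were at or near 0. SNHG1 and GAS5, the snoRNA host genes among them, were lower in shEZH2 cells. Called lower as well were 8 of 26 other host genes tested, against 10.7% of all genes. Their list was chosen with earlier results of these data known, so this count is a description. NEAT1 was lower in shEZH2 cells and PVT1 higher, each by less than 2-fold, so neither was called. PVT1 was higher in shE2F1 cells as well. None of the 7 tested was called after GSK126, where each changed by less than 2-fold.

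Long noncoding RNAs act as RNA. MALAT1 lies in nuclear speckles and NEAT1 is the scaffold of paraspeckles, nuclear bodies that form around its long isoform with SFPQ, NONO and other proteins. GAS5 and SNHG1 carry small nucleolar RNAs (snoRNAs) in their introns, and the spliced remainder of many such host transcripts is degraded when it is translated. HOTAIR, KCNQ1OT1, MEG3, H19 and PVT1 have each been reported to bind EZH2 or PRC2, the complex that methylates histone H3 at lysine 27. KCNQ1OT1, MEG3 and H19 are imprinted, and PVT1 is a neighbour of MYC.

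MDA-MB-231, an established triple-negative breast cancer line, gave 10 distinct libraries in 5 groups, each of 2. In the knockdown experiment cells received lentivirus for 24 h carrying Control shRNA, shEZH2 or shE2F1, the latter being hairpins against EZH2 and E2F1, and were kept in puromycin at 2 ug/ml for 72 h. In the drug experiment cells received DMSO or GSK126, an inhibitor of EZH2 methyltransferase activity, at 1 uM for 72 h. The labels name a single hairpin treatment for each target and do not say that replicates came from separate cultures, so p-values measure the spread between these libraries only. Totals ran from 13198932 to 20055550 expected counts per library. Abundance is given as TPM (transcript abundance scaled by length and library), with which genes can be compared, or as CPM (counts per 1000000 after TMM scaling over the 10 libraries), with which a gene can be compared between libraries. VIM, CD44, AXL and CAV1, markers of this mesenchymal line, had medians from 435 to 2555 TPM. PGR had no count, ESR1 had at most 4 counts, ERBB2 lay from 20 to 35.6 TPM, and the leukocyte and endothelial markers PTPRC and PECAM1 stayed at or under 0.72 TPM. Of the epithelial markers, CDH1 lay from 0.26 to 4.5 TPM. EPCAM, also epithelial, lay from 12.4 to 37.7 TPM, a level like that of ERBB2.

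MALAT1 and the long isoform of NEAT1 are known to end without a poly(A) tail. Their ends are made by RNase P and protected by a triple helix of U-rich letters with an A-rich tract, so these ends are shown because the libraries were selected on poly(A). In each sequence, read 5′ to 3′ from the GENCODE transcript, the capitals mark the U-rich letters and the final A-rich tract. MALAT1 lies at chr11:65506022-65506116 on the plus strand of GRCh38, in the MALAT1-202 transcript of 10434 bases. NEAT1 lies at chr11:65445446-65445540 on the plus strand, at the last bases of the NEAT1-202 transcript of 22743 bases.
MALAT1: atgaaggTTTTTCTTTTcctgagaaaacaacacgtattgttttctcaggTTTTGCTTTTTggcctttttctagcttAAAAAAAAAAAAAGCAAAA
NEAT1: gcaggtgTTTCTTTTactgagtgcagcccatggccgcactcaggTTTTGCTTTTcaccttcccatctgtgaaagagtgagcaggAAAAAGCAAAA
Before the tract both transcripts held the same 16 bases, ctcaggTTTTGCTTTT, and the tract's last 11 bases, AAAAAGCAAAA, were also the same. TTTTGCTTTT followed by AAAAAGCAAAA, with the start of the second within 60 bases of the start of the first on the transcript's own strand, was found in 4 of 62700 annotated genes (0.00638%). These were MALAT1, NEAT1, RETREG3 and TALAM1, the last being the antisense transcript over the same place as MALAT1. The MALAT1 annotation ran 1957 bases past the tract, while that of NEAT1 ended on it.

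Poly(A) selection can also retain a transcript through an internal run of A. The longest run is therefore shown for NEAT1 and KCNQ1OT1, an antisense RNA from within KCNQ1 whose transcript in the tables was a single one of 91667 bases. Capitals mark the run, with 20 bases on either side.
NEAT1 (chr11:65440823-65440884, plus strand): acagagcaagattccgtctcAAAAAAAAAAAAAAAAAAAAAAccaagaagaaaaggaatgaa
KCNQ1OT1 (chr11:2610697-2610765, minus strand): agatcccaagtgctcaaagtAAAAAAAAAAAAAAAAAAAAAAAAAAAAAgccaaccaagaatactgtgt
The NEAT1 run had 22 A and lay only in the long isoform, which held 5 runs of at least 10 A, whereas the longest run of the other NEAT1 transcripts had 5. The KCNQ1OT1 run had 29 A and was among 17 runs of at least 10. In MALAT1 the longest run, of 13 A, was the A-rich tract printed above, and in GAS5, SNHG1 and H19 no run passed 8. How far such runs contributed to the counts was not tested.

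MALAT1 was the highest of the 9 over the 10 libraries, with a median of 354 TPM (155.5 to 576). GAS5 followed at 265 TPM (138 to 349.9), NEAT1 at 161 TPM (55.8 to 409) and SNHG1 at 122 TPM (59.5 to 219.5). The ranges of these 4 overlapped, and neighbours in this order kept it in 6 or 7 of the 10 libraries. PVT1 stood apart below them at 24.4 TPM (18.9 to 36.3), under SNHG1 in all 10 libraries. H19 had a median of 0.78 TPM and KCNQ1OT1 of 0.34 TPM, with ranges that overlapped. KCNQ1OT1 had a median of 369 counts against 12.5 for H19, so its low TPM goes with the 91667 bases over which its reads were divided. In the drug experiment NEAT1 ranked first in all 4 libraries, at 339 to 409 TPM, and in the knockdown experiment it ranked behind MALAT1 and GAS5, at 55.8 to 162 TPM. MALAT1 ranked first in all 6 knockdown libraries. Lentivirus, selection and time in culture differ between these experiments, so the values are set side by side without a test, and cannot be told apart from them.

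**Figure D1:**
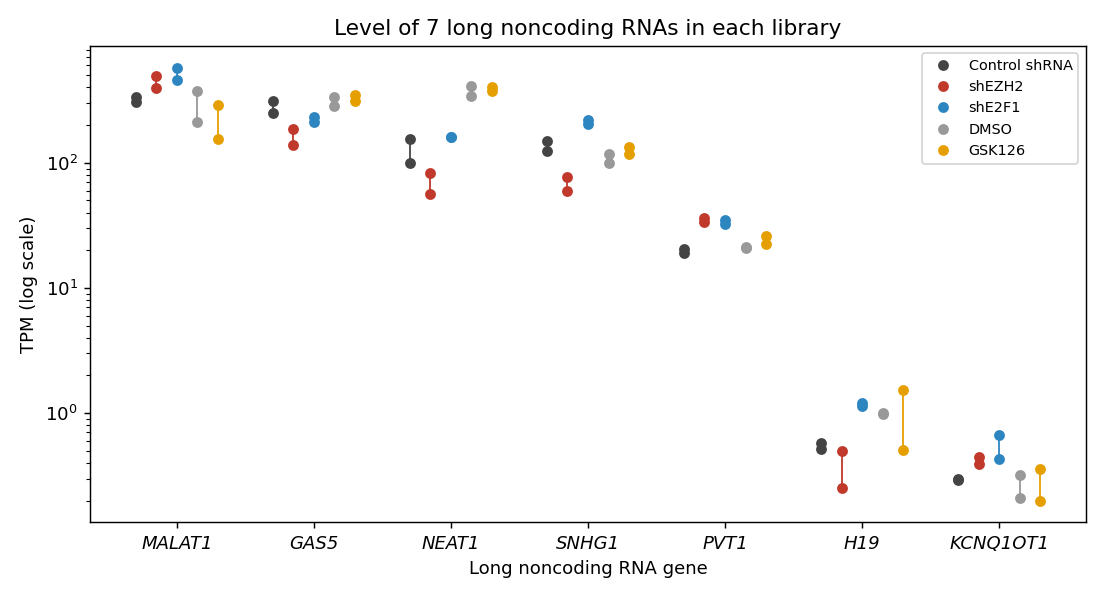
TPM of the 7 members with counts in every library, on a log axis, with a point per library, 2 per group, and a line joining the libraries of a group. MALAT1, GAS5, NEAT1 and SNHG1 overlap, PVT1 lies between 18.9 and 36.3 TPM, and NEAT1 is at 339 TPM or more in DMSO and GSK126 and at 162 TPM or less in the knockdown experiment.

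HOTAIR and MEG3 gave almost nothing to measure. HOTAIR, transcribed from the HOXC cluster and reported to bring PRC2 to HOXD genes, had 1 count in each of shE2F1 replicate 2, DMSO replicate 2 and GSK126 replicate 2 and 0 in the other 7 libraries. MEG3, an imprinted RNA of the DLK1 cluster, had 0 counts in all 10. A count of 0 allows up to 3 counts, or 0.144 to 0.226 CPM in these libraries, by counting error only. Neither passed the filter on low counts, so 7 of the 9 were tested. The genes around them were low as well. Of 15 HOX genes near HOTAIR or reported under it, HOXC6 had the most counts with 40.3, and 7 of the 15 had 0 counts throughout. In bulk RNA, fewer expressing cells and less RNA per cell cannot be told apart.

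The hairpins lowered their targets. EZH2 was at 153 and 181 CPM in Control shRNA and at 52.7 and 44.8 CPM in shEZH2, a log2 change of -1.79 ± 0.12 (SE; edgeR quasi-likelihood F-test, adjusted p = 2.4e-06). E2F1 was at 143 and 138 CPM in Control shRNA and at 26.0 and 22.6 CPM in shE2F1 (-2.54 ± 0.24, adjusted p = 1.5e-05). E2F1 was also called lower in shEZH2, at 62.5 and 32.3 CPM (-1.59 ± 0.23, adjusted p = 0.00017), so the shEZH2 libraries were low in both factors. After GSK126 EZH2 RNA was at 133 and 142 CPM, against 123 and 127 CPM in DMSO.

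The comparison of shEZH2 with Control shRNA shows which RNAs changed with this hairpin treatment, in libraries low in both EZH2 and E2F1. Calls required an adjusted p under 0.01 together with more than a 2-fold change. By this rule 10.7% of the 15373 tested genes were called lower and 7.52% higher. Of the 7 tested members 2 were called lower, SNHG1 and GAS5, and 0 higher. At an adjusted p under 0.01 and any fold, 21.5% of all genes were lower and 20.2% higher, against 3 and 1 of the 7 members.

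SNHG1 fell in shEZH2. It had 100.5 and 131 CPM in the Control shRNA libraries and 60.7 and 43.7 CPM in the shEZH2 libraries. Both knockdown libraries lay under both controls. The log2 change was -1.16 ± 0.16 (SE, 2.24-fold, adjusted p = 0.00016). Without Control shRNA replicate 2 it was -0.96, and without shEZH2 replicate 2 it was -0.93, each under 2-fold and so no longer called.

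GAS5, named for its rise in growth-arrested cells, fell by about as much. Its libraries read 107 and 147 CPM in Control shRNA and 71.4 and 52.4 CPM in shEZH2, again without overlap. The log2 change was -1.05 ± 0.17 (2.08-fold, adjusted p = 0.00036), close to the 2-fold limit. It was -0.81 without Control shRNA replicate 2, -0.83 without shEZH2 replicate 2 and -0.98 with an offset for effective length, and was not called in these cases. GAS5 overlaps ZBTB37, a zinc finger gene, on the opposite strand, and whether counting used the strand is not given in the sources used here. ZBTB37 changed by 0.44 (adjusted p = 0.022) and did not pass 0.01.

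Other snoRNA host genes were lower too. Their list was chosen with earlier results of these data known, so the shares below are a description and not a test. The list also holds TAF1D, a coding host gene, and short-lived spliced RNAs like the host transcripts. Of 27 on the list 26 were tested, and 8 were called lower and 1 higher, against 10.7% and 7.52% of all genes. With no fold limit 12 fell and 2 rose at an adjusted p under 0.01, against 21.5% and 20.2% of all genes. The median log2 change of the 26 was -0.61, against -0.02 over all genes tested. SNHG8 had the largest fall, from 30.7 and 40.2 CPM to 10.1 and 7.0 CPM (-2.08 ± 0.20, adjusted p = 1.3e-05). SNHG4 followed at -2.03 ± 0.26 (adjusted p = 8.5e-05) and SNHG3 at -1.72 ± 0.22 (adjusted p = 7.9e-05). DANCR, SNHG32, SNHG30, SNHG5 and SNHG16 were the other 5 called lower, with changes from -1.72 to -1.15. SNHG11 went the other way, from 4.45 and 3.96 CPM to 10.9 and 13.5 CPM (1.52 ± 0.20, adjusted p = 0.00011). ZFAS1, another abundant host gene, changed by -0.31 and was not called. The loss was therefore uneven across the list and not a feature of every host gene.

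**Figure D2:**
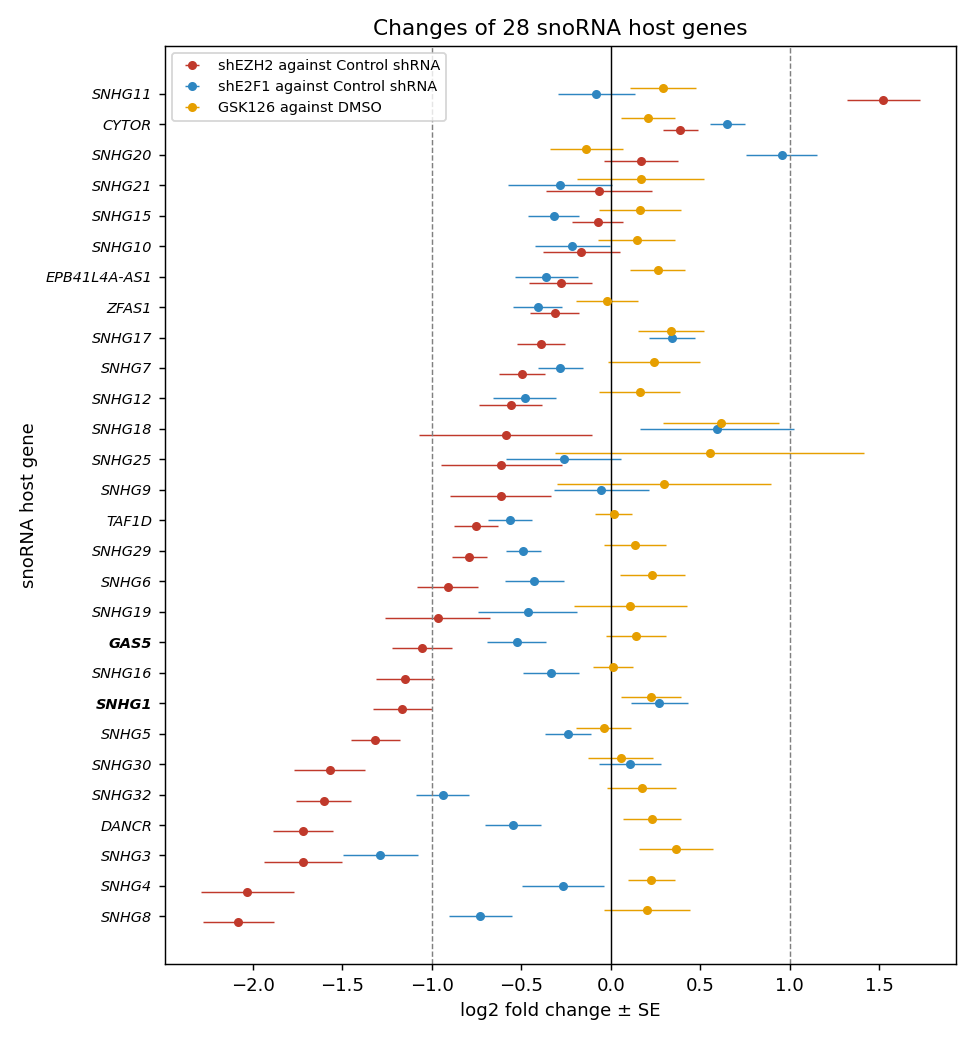
Log2 fold change with its SE for GAS5, SNHG1 (bold) and 26 other snoRNA host genes, ordered by the change in shEZH2, with shE2F1 and GSK126 on the same rows and dashed lines at 2-fold. The shEZH2 points run from -2.08 (SNHG8) to 1.52 (SNHG11), and in GSK126 no point passed the test.

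NEAT1 fell in shEZH2 by less than 2-fold. Its Control shRNA libraries were at 275 and 187 CPM and its shEZH2 libraries at 142 and 112 CPM. The groups did not overlap, but the controls were 88.1 CPM apart. The log2 change was -0.88 ± 0.17 (1.84-fold, adjusted p = 0.0012). It passed 2-fold and was called without Control shRNA replicate 2 (-1.13), without shEZH2 replicate 1 (-1.07), with the effective length offset (-1.06) and with a correction for GC content and length (-1.28), and the size of the change therefore turned on these choices. Without Control shRNA replicate 1 it was -0.57. None (0) of 15 paraspeckle proteins was called, where 10.7% of all genes were called lower and 7.52% higher. At an adjusted p under 0.01 and any fold 4 of the 15 were lower, near the 21.5% of all genes. RBM3, a cold-inducible RNA-binding protein (-0.75 ± 0.10), was among these 4. SFPQ and NONO, the core pair, did not pass in shEZH2.

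PVT1 rose in shEZH2 by less than 2-fold. It was at 15.2 and 15.1 CPM in Control shRNA and at 23.7 and 23.3 CPM in shEZH2. The replicates differed by 0.08 CPM in Control shRNA and by 0.33 CPM in shEZH2, far less than the groups. The log2 change was 0.62 ± 0.12 (1.53-fold, adjusted p = 0.0014). PVT1 had whole counts (within 0.005) in 1 of 10 libraries, SNHG1 in 3, NEAT1 in 5 and MALAT1 in 9, so in the others RSEM divided some reads between genes. MYC, the oncogene upstream of PVT1, changed by 0.27 (adjusted p = 0.05). GSDMC, a gasdermin gene 1561095 bases from PVT1, was called higher (1.91 ± 0.45, adjusted p = 0.0044) at no more than 28 counts. The GSDMC call was lost with DESeq2 (1.96), with the effective length offset (1.74) and without Control shRNA replicate 1 (2.01), Control shRNA replicate 2 (1.83) or shEZH2 replicate 1 (1.59).

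MALAT1, KCNQ1OT1 and H19 did not pass in shEZH2. MALAT1 was at 731 and 719 CPM in Control shRNA and at 819 and 930 CPM in shEZH2, a log2 change of 0.26 ± 0.12 (adjusted p = 0.088). The value turned to -0.11 once GC content and length were corrected for. KCNQ1OT1 was at 19.2 and 19.3 CPM against 22.1 and 26.3 CPM (0.32 ± 0.18, adjusted p = 0.16). H19, an imprinted RNA that holds a microRNA in its exon, was at 0.79 and 0.48 CPM against 0.15 and 0.35 CPM. That came from 15 and 8 counts against 2 and 6, and a log2 change of -1.31 ± 0.64 (adjusted p = 0.1) could not be distinguished from 0 at this depth.

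The comparison of shE2F1 with Control shRNA gave another pattern over the same controls. By the rule 5.96% of the genes tested were called lower and 5.6% higher, and of the 7 members 0 were called in either direction. At an adjusted p under 0.01 and any fold the shares were 16.5% lower and 13.6% higher, against 0 and 3 of the 7 members. These 3 were MALAT1, PVT1 and KCNQ1OT1.

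MALAT1 rose to 1164 and 913 CPM in shE2F1, above both controls (0.51 ± 0.12, 1.42-fold, adjusted p = 0.0053). PVT1 rose to 22.2 and 21.9 CPM (0.53 ± 0.12, 1.44-fold, adjusted p = 0.0047), close to its level in shEZH2. KCNQ1OT1 rose to 25.2 and 37.7 CPM (0.70 ± 0.18, 1.62-fold, adjusted p = 0.0087), with its knockdown replicates 12.5 CPM apart. MYC fell in shE2F1 by 0.88 on the log2 scale (adjusted p = 0.0001), so PVT1 and its neighbour moved in opposite directions there.

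SNHG1 was at 149 and 131 CPM in shE2F1, against 100.5 and 131 CPM in the controls (0.27 ± 0.16, adjusted p = 0.19). GAS5 was at 93.0 and 84.5 CPM (-0.53 ± 0.16, adjusted p = 0.023) and NEAT1 at 279 and 272 CPM (0.25 ± 0.17, adjusted p = 0.25). H19 was at 1.01 and 0.65 CPM (0.36 ± 0.51). None of these 4 passed. Of the 26 other host genes 1 was called lower, SNHG3 (-1.29 ± 0.21, adjusted p = 0.00059, and -1.11 with no call without shE2F1 replicate 2), and 0 higher, and the median was -0.30 against 0.00 over all genes. Over all genes 5.96% were called lower and 5.6% higher. At an adjusted p under 0.01 and any fold 5 of the 26 fell and 2 rose, near or under the 16.5% and 13.6% of all genes. The 2 that rose were CYTOR (0.65) and SNHG20 (0.95). Of the paraspeckle proteins 0 were called and 9 of 15 fell at any fold, against 16.5% of all genes. These 9 were led by CIRBP, another cold-inducible RNA-binding protein (-0.77), and HNRNPH1 (-0.70 ± 0.09, adjusted p = 9.5e-05), with SFPQ at -0.62 and NONO at -0.45.

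**Figure D3:**
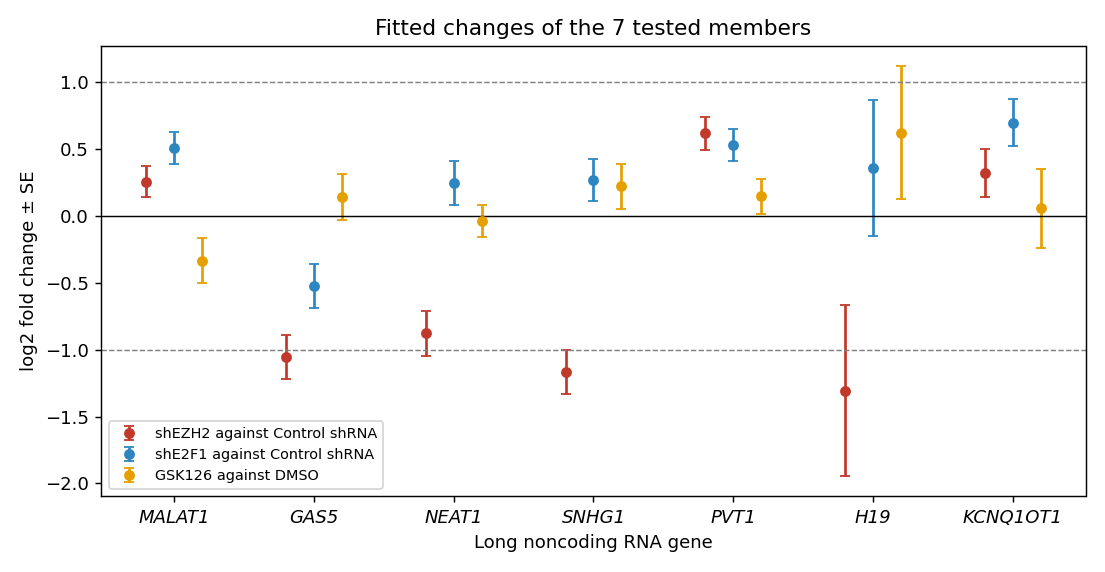
Log2 fold change with its SE of the 7 tested members in shEZH2, shE2F1 and GSK126, each against its own control, with dashed lines at 2-fold. In shEZH2 SNHG1 (-1.16) and GAS5 (-1.05) lie past the lower line, and H19 (-1.31) lies past it with an SE of 0.64.

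The knockdowns were compared with each other directly, since each against the same controls does not test their difference. Between them 12.9% of genes were called lower in shEZH2 and 10.4% higher, and of the 7 members 2 were called lower and 0 higher. SNHG1 was lower in shEZH2 than in shE2F1 (-1.44 ± 0.16, adjusted p = 2.8e-05). NEAT1 was 2.18-fold lower (-1.12 ± 0.17, adjusted p = 0.0002), and -0.96, no longer called, without shEZH2 replicate 2. For GAS5 the difference was -0.53 ± 0.17 (adjusted p = 0.018), which did not pass, and for PVT1 it was 0.09 ± 0.12 (adjusted p = 0.54). H19 differed by -1.67 ± 0.61 (adjusted p = 0.035), MALAT1 by -0.25 and KCNQ1OT1 by -0.38. Of the other host genes 5 were called lower in shEZH2 than in shE2F1, with SNHG4 (-1.77 ± 0.26, adjusted p = 0.00017), SNHG30 (-1.68 ± 0.20, adjusted p = 3.3e-05) and SNHG8 (-1.35 ± 0.20, adjusted p = 0.00017) at the head. SNHG11 was called higher (1.60 ± 0.20).

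GSK126 blocks the methyltransferase activity of EZH2 and leaves the protein in place. Its comparison with DMSO called 0 of 14632 genes (0%), with 577 at an unadjusted p under 0.05. DESeq2 called 11 genes, and edgeR with the replicate number as a block called 68, with 0 members by any of these. With the block 3720 genes were at an unadjusted p under 0.05. The SE and adjusted p given here are from the fit without it. In that fit every tested member changed by less than 2-fold, so the fold limit was enough to leave them uncalled. MALAT1 read 661 and 540.2 CPM in DMSO, then 540.0 and 415 CPM under GSK126, a log2 change of -0.33 ± 0.17 (adjusted p = 1.00). The GSK126 to DMSO ratio was 0.817 within replicate 1 and 0.768 within replicate 2. SNHG1 read 80.4 and 103 CPM in DMSO, then 94.8 and 119 CPM under GSK126 (0.22 ± 0.17), with ratios of 1.18 and 1.16 within the replicates. GAS5 had ratios of 1.13 and 1.08 (0.14 ± 0.17), PVT1 of 1.13 and 1.09 (0.15 ± 0.13), NEAT1 of 0.917 and 1.05 (-0.03 ± 0.12) and KCNQ1OT1 of 1.11 and 0.944 (0.06 ± 0.30). H19 had 11 and 16 counts in DMSO and 25 and 13 in GSK126, and its ratios were 2.66 and 0.848. SNHG1, GAS5 and PVT1 were thus slightly higher in GSK126 within both replicate numbers, by no more than 1.18-fold, and MALAT1 lower. Of the other host genes 0 of 26 were called, with a median of 0.19 against -0.01 over all genes. SNHG18, the host gene with the smallest p, was at 0.62 ± 0.32 (adjusted p = 1.00).

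Whether the shEZH2 effect differed from the GSK126 effect was tested as a difference of differences over the 10 libraries, each effect against its own control. By the rule 8.67% of 15773 genes were called lower and 5.13% higher, and of the 7 members 2 were called lower and 0 higher. For SNHG1 the difference was -1.37 ± 0.26 (adjusted p = 0.0018) and for GAS5 -1.18 ± 0.27 (adjusted p = 0.0048). SNHG1 lost its call at -1.17 without Control shRNA replicate 2 and at -1.15 without shEZH2 replicate 2. GAS5 lost it, at values from -1.01 to -0.94, without Control shRNA replicate 2, shEZH2 replicate 2, DMSO replicate 1 or GSK126 replicate 2. NEAT1 (-0.83 ± 0.24, adjusted p = 0.016), MALAT1 (0.60 ± 0.22, adjusted p = 0.045), PVT1 (adjusted p = 0.046), H19 (-1.91 ± 0.84, adjusted p = 0.094) and KCNQ1OT1 (0.27 ± 0.36) did not pass. NEAT1 was called for this difference with the effective length offset (-1.08), with the GC and length correction alone (-1.25) or with the replicate block (-1.24), and without Control shRNA replicate 2 (-1.08). Of the other host genes 9 were called lower and 1 higher, SNHG8 at -2.27 ± 0.34 and SNHG11 at 1.24 ± 0.27. SNHG11 lost its call with the effective length offset (1.24) and without Control shRNA replicate 2 (1.16), DMSO replicate 1 (1.20), GSK126 replicate 1 (1.17) or shEZH2 replicate 2 (1.07). Hairpin and inhibitor also differ in vector, selection and culture, which cannot be told apart from the loss of the protein.

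RSEM weighs the length of each gene by the isoforms it assigns reads to, and this gives a view of isoform use. NEAT1 had a mean length of 2729 and 2717 bases in Control shRNA and of 2951 and 3294 bases in shEZH2. It was 2910 and 2907 bases in shE2F1, and from 2570 to 3051 bases in the drug experiment. The shEZH2 values thus lay above their controls, though the 2 shEZH2 libraries were 343 bases apart and GSK126 replicates alone were 481 bases apart. Because the shortest NEAT1 transcript in the tables had 512 bases, these means allow the long isoform at most 9.26% to 12.5% of NEAT1 molecules in any library. That bound holds for the estimate from poly(A)-selected RNA only. SNHG1 was shorter in shE2F1, at 1231 and 1209 bases, than in every other library (1315 to 1453 bases). GAS5 stayed between 760.2 and 815.5 bases. It was shorter in shEZH2 (790.0 and 760.2 bases) than in Control shRNA (797.8 and 810.0 bases) and longer in GSK126 (807.6 and 799.2 bases) than in DMSO (788.2 and 771.3 bases), by small margins. MALAT1 lay between 2838 and 3915 bases, and each group overlapped its control. With 2 libraries in each group an exact permutation test cannot give a p under 0.333, so none is given.

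**Figure D4:**
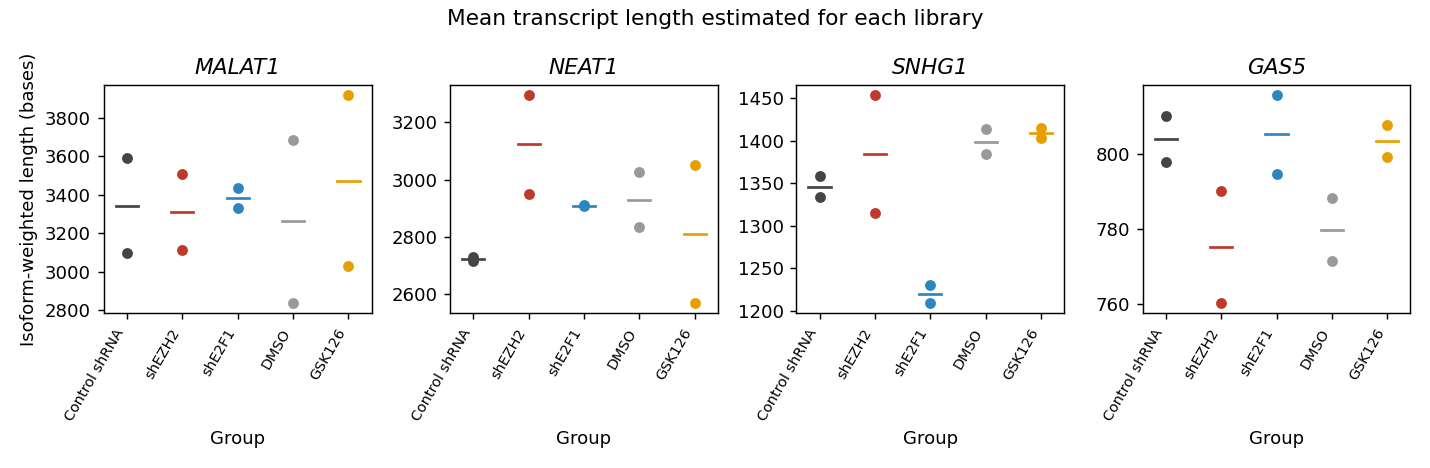
Isoform-weighted mean length in bases of MALAT1, NEAT1, SNHG1 and GAS5, with a point per library and a bar at the group mean, on axes that do not start at 0. NEAT1 is longest in shEZH2 replicate 2 (3294 bases) and SNHG1 is shortest in shE2F1 (1231 and 1209 bases).

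E2F factors bind promoters, so the promoters of the members were searched for TTTCCCGC, TTTCGCGC, TTTGCCGC and TTTGGCGC on both strands. RefSeq promoters (250 bases before to 50 after the start, GRCh38) were at hand for 5 members, MALAT1, GAS5, SNHG1, H19 and MEG3. SNHG1 was the single member of these 5 with a match, which 3.31% of 35116 promoters had, and its promoter is shown for that reason with the match in capitals (chr11:62855836-62856135, minus strand).
SNHG1: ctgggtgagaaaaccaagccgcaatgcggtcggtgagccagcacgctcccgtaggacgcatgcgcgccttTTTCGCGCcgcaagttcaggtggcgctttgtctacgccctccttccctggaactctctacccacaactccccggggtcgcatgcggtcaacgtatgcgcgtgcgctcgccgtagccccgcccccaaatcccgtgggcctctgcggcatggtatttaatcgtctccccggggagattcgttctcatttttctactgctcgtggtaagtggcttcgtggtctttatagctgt
The match began at position -180 from the start. Of 23 other host genes whose promoters were searched, 3 held a match, SNHG17, SNHG18 and ZFAS1, and SNHG3, the host gene called lower in shE2F1, held none. A match in letters is a description and not a binding site.

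The neighbours of the members did not all move with them. SLC3A2, a subunit of amino acid transporters that starts 51 bases from SNHG1 on the other strand, rose in shEZH2 (0.69, adjusted p = 0.00034) where SNHG1 fell. WDR74, a ribosome assembly factor gene 10169 bases away, rose too (0.76, adjusted p = 0.0003), and STX5, a Golgi syntaxin gene, fell (-0.62, adjusted p = 0.00045). In the region of NEAT1 and MALAT1, FRMD8 rose (0.89, adjusted p = 5e-05) and LTBP3, which encodes a binding protein of latent TGF-beta, was called lower (-1.61 ± 0.23, adjusted p = 0.00019). SLC25A45, a mitochondrial carrier gene, was called higher in shE2F1 (1.5 ± 0.22, adjusted p = 0.00035). TALAM1, antisense to MALAT1, had 0.0434% to 0.688% of the counts of MALAT1 and did not pass in shEZH2 (adjusted p = 0.073). Of the 14 neighbours tested outside the imprinted clusters, 1 was called lower and 1 higher in shEZH2, near the 10.7% and 7.52% of all genes. The 1 called higher was GSDMC, 1561095 bases from PVT1. In shE2F1 0 were called lower and 1 higher, against 5.96% and 5.6% of all genes.

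In the imprinted cluster of KCNQ1OT1 and H19 on chromosome 11, PHLDA2, an imprinted growth restrictor of the placenta, had the largest change. It was at 89.6 and 78.9 CPM in Control shRNA and at 10.5 and 8.6 CPM in shEZH2 (-3.16 ± 0.14, adjusted p = 3.3e-07). SLC22A18 was called higher in shE2F1 (2.25 ± 0.20, adjusted p = 1.2e-05) and CDKN1C, a cell cycle inhibitor, was called higher in shEZH2 than in shE2F1 (2.10 ± 0.29, adjusted p = 0.00011). Of the 8 tested neighbours in imprinted clusters, 1 was called lower and 0 higher in shEZH2, against 10.7% and 7.52% of all genes. KCNQ1OT1 itself did not pass. NAP1L4, TSSC4 and CD81 of the same cluster did not pass in shEZH2 either.

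Among 17 tested of 32 other long noncoding RNAs linked to Polycomb or cancer, 1 was called higher and 1 lower in shEZH2. The shares over all genes were 7.52% and 10.7%. LINC00511 went from 14.4 and 11.5 CPM to 35.4 and 39.98 CPM (1.53 ± 0.16, adjusted p = 2.1e-05), and UCA1 from 373 and 330.0 CPM to 89.8 and 57.3 CPM (-2.27 ± 0.21, adjusted p = 1.1e-05). In shE2F1 MIR503HG (1.23) and BLACAT1 (2.77, at no more than 26 counts) were called higher and MIR100HG (-1.30) and DLEU2 (-1.17) lower. These were 2 and 2 of the 17, against 5.6% and 5.96% of all genes. BLACAT1 lost its call with DESeq2 (2.85), with the effective length offset (2.76) and without Control shRNA replicate 1 (2.98), Control shRNA replicate 2 (2.60) or shE2F1 replicate 2 (2.09). DLEU2 lost it without Control shRNA replicate 2 (-0.86), shE2F1 replicate 1 (-1.26) or shE2F1 replicate 2 (-1.09). The list's median was -0.17 in shEZH2 and -0.19 in shE2F1.

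Of 18 factors that process or degrade nuclear RNA and host transcripts, 1 was called higher and 2 lower in shEZH2, near the shares over all genes (7.52% and 10.7%). SMG5, a factor of nonsense-mediated decay, rose (1.26 ± 0.09, adjusted p = 3.5e-06), UPF3B of the same pathway fell (-1.07 ± 0.16, adjusted p = 0.00021), and METTL3, the m6A methyltransferase, fell (-1.14 ± 0.14, adjusted p = 5.5e-05). UPF3B lost its call without Control shRNA replicate 2 (-0.88) or shEZH2 replicate 2 (-0.90). In shE2F1 0 were called, where 5.96% of all genes were called lower and 5.6% higher.

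Structural RNAs and replication-dependent histone RNAs, listed as lacking poly(A) tails, were measured beside MALAT1 and NEAT1. Their summed level over 27 genes was 257 and 264 CPM in Control shRNA, 488 and 498 CPM in shEZH2, 287 and 234 CPM in shE2F1 and 122 to 173 CPM in the drug experiment, with counts for 16 to 20 of the 27. The 12 histone genes made up 372 and 387 CPM of it in shEZH2, against 158 and 166 CPM in Control shRNA, while the structural RNAs were at 116 and 111 CPM against 99.6 and 97.5 CPM. H1-2 alone was at 278 and 271 CPM in shEZH2, against 136 and 138 CPM in Control shRNA. The sum thus followed mainly the histone genes. Of 11 tested, 3 were called higher in shEZH2, namely H2BC4 (3.08 ± 0.17), H4C8 (2.20 ± 0.19) and SNORD3A (1.34 ± 0.17), and 0 lower. The shares over all genes were 7.52% and 10.7%. In shE2F1 2 were called higher and 3 lower, against 5.6% and 5.96% of all genes. The 3 called lower were RPPH1, the RNA of RNase P (-2.23 ± 0.27), H4C3 (-1.92) and SNORD3A (-1.34). The 2 called higher were H2BC4 (1.23) and H4C8 (1.03). H4C8 lost its call with the effective length offset (0.57), with the GC and length correction (0.90, also with the replicate block) and without Control shRNA replicate 1 (0.82) or shE2F1 replicate 1 (0.80). H4C3 lost it without shE2F1 replicate 2 (-1.63), and SNORD3A lost it in both knockdowns when all 10 libraries were fitted together (1.35 in shEZH2 and -1.34 in shE2F1). Whether poly(A) selection differed between groups was not tested, nor was the part of these shifts in the levels of MALAT1 and NEAT1.

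The genes whose profiles over the 10 libraries were most like each member were found by Pearson's r of log2 CPM among 9390 genes. The libraries of an experiment share their culture and vector, so r is given as a description. GAS5 was most like SNHG8 (r = 0.978), SNHG32 (0.977) and MARS1, the methionyl-tRNA synthetase gene (0.977), so that 2 of its 3 were host genes. SNHG1 was most like ASCC2, LETM2 and KLF16 (r from 0.982 to 0.983), of which none is a host gene on the list. NEAT1 was most like SLC37A2 (0.990), GDF15, a stress-induced cytokine (0.983), and SYNE1 (0.978), of which 1 stayed among its 3 with a pseudocount of 5 in place of 0.5. PVT1 was most like CHIC2, PPIC and PARP12 (0.983 to 0.985), MALAT1 like FNBP1 (0.962) and RBBP6 (0.957), and KCNQ1OT1 like UBE2K (0.944) and CASP8 (0.943).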

How the data were processed

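The members and gene lists were chosen with earlier results of these data known. Per the methods, the authors aligned reads to hg38 with STAR and an Ensembl annotation and estimated abundance with RSEM; the submitters' processing notes name STAR 2.7.2b and RSEM 1.3.1. The deposited files give expected counts, in which shared reads are divided between genes, and TPM and FPKM, both scaled by length, with the isoform-weighted length. Whether strand was used is not given in the sources used here. Of 18 records, 8 repeated another exactly and were left out.

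Gene names and coordinates came from GENCODE 44, with 62625 of 62703 identifiers found, and promoters from RefSeq. Expected counts were rounded and fitted in R 4.3.3 with edgeR 4.0.16 (filterByExpr, TMM, quasi-likelihood F-test, Benjamini-Hochberg over all genes), over 6 knockdown libraries, 4 drug libraries, or all 10 for the difference. DESeq2 1.42.0, other scalings, filters and fits were alternatives. The fits were tested on simulated data. Depth ran from 13198932 to 20055550 expected counts, so that 3 counts, the upper limit behind a count of 0, equal 0.144 to 0.226 CPM.

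Named genes were the 9 members, EZH2 and E2F1, and from each list the called genes with the largest change, up to 3 in each direction, or the gene with the smallest p where none was called. Genes named besides these were chosen after their values were seen. Genes most like a member were the 3 with the highest r of log2(CPM + 0.5) among genes with a mean of at least 200 counts, for members with a mean of at least 50. Some genes that these rules selected are not reported here.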

Additional observations from a re-analysis of the deposited data

Results flagged for a closer look

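The effect of shEZH2 differed from that of GSK126, by the test of the difference itself, for SNHG1 (-1.37 on the log2 scale) and GAS5 (-1.18). The effects of shEZH2 and shE2F1 differed for SNHG1 (-1.44) and NEAT1 (-1.12) in the direct comparison. Groups held 2 libraries each, so no library could be examined for standing apart from its group.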

How the results depend on the processing

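At an adjusted p under 0.05 with no fold limit, genes called numbered 8550 in shEZH2, 6879 in shE2F1, 9267 between the knockdowns and 5780 for the difference from GSK126, with 4, 4, 4 and 5 members and, in the first 3, 15, 8 and 13 other host genes called lower. Under the other alternatives, counts of members called moved by over 1.5 times only where a library was left out. These ranged from 0 (without shEZH2 replicate 2) to 3 for shEZH2, from 1 to 2 between the knockdowns and from 0 to 2 for the difference, where all genes called ran from 1298 to 2424. Other host genes called lower ranged from 0 to 2 in shE2F1 and from 3 (without shEZH2 replicate 2) to 5 between the knockdowns. With a correction for GC content and length, alone or with the replicate block, 2 host genes were called lower in shE2F1, MALAT1 turned to -0.11 (-0.11 with the block) in shEZH2 and KCNQ1OT1 to -0.081 (-0.087 with the block) for the difference. The effective length offset turned NEAT1 to 0.040, H19 to -0.065 and HOXC6 to -0.056 after GSK126. Leaving out a library turned the sign of uncalled values after GSK126: NEAT1 ran from -0.16 to 0.11, KCNQ1OT1 from -0.38 to 0.40, GAS5 from -0.027 to 0.34, HOXC6 from -0.19 to 0.43 and METTL3 from -0.0092 to 0.33, and for the difference KCNQ1OT1 ran from -0.061 to 0.73. The cause was not tested.

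GSK126 called 0 genes, 11 with DESeq2 and 30 to 40 with a library left out. The difference between replicates 1 and 2 correlated between DMSO and GSK126 (r = 0.70 over 11919 genes) and by 0.03 to 0.19 between knockdown groups. With 2 numbers per group these were not taken as pairs, so SE and p-values after GSK126 came from the fit without the replicate block. The replicate block gave 68 calls after GSK126, or 86 with the GC and length correction, and 0 members, and changed no call of a member in any comparison. After GSK126 the members' changes with the block stayed under 2-fold, so the block could not have called them. Of 492 alternative values of members' changes, 458 kept their direction and side of the threshold, 9 gained and 12 lost a call, and 13 turned sign. With 2 libraries per group, each call rests on few degrees of freedom.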
